A study of Homo sapiens with 20 samples.

Results

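Which mRNAs carry many ribosomes, and which carry few, was described in unedited K562 cells, a human leukaemia line with erythroid features. The series was made to study NAT10, the enzyme that acetylates cytidine in RNA, and it holds 20 samples of wild type cells and of cells in which exon 5 of NAT10 was cut out with CRISPR-Cas9. Only the wild type cells are the subject here: 2 RNA-seq libraries and 2 ribosome profiling (Ribo-seq) libraries of the parental line, grown in the same medium and given cycloheximide before the Ribo-seq harvest. Genes were taken if both count tables held them and each of the 4 libraries had at least 10 counts, which 8154 of 20401 shared genes met. Of the others, 3454 reached the minimum only in RNA, 50 only in footprints and 8743 in neither. The labels give total RNA as the molecule for RNA-seq and polyA RNA for Ribo-seq, and their Ribo-seq protocol describes sucrose gradient fractions without naming a nuclease step, so "footprint" is used as the submitters' assay name.

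An mRNA is read by several ribosomes at a time, and the number it carries depends on how often ribosomes start, how fast they move and how long the reading frame is. Cells also hold back particular mRNAs: ferritin mRNAs through a hairpin bound by iron regulatory proteins, stress-response mRNAs through short upstream reading frames, and mRNAs of the translation machinery through a pyrimidine tract at their first base (a 5′ terminal oligopyrimidine, or TOP, tract). K562 cells make embryonic and foetal globins, and the balance between ribosome supply and these mRNAs is a known theme in red cell biology.

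The RNA-seq libraries held 10388717 and 12725302 counts and the Ribo-seq libraries 1220308 and 911336. Footprint counts therefore set the precision. Log2 CPM (counts scaled to library size) over the genes kept were correlated across genes at r = 0.995 between the RNA libraries and at 0.969 between the Ribo-seq libraries. The RNA matched the labelled line in its erythroid genes: 11 of 12 erythroid genes checked were kept. Markers of other blood and tissue cells were mostly below the minimum, with 3 of 14 megakaryocyte, 4 of 19 granulocyte and monocyte, 1 of 16 lymphocyte and 4 of 15 fibroblast and epithelial markers kept. MS4A1, the B cell antigen CD20, and PF4, a platelet chemokine, had 0 counts in all 4 libraries. Others were present: ITGA2B, a platelet integrin, had 275 and 296 RNA counts, EPCAM, an epithelial adhesion protein, 509 and 517, and LYZ, lysozyme, 145 and 150.

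For each gene the log2 difference between footprint CPM and RNA CPM was fitted with edgeR. A value of 0 marks an average gene, not a number of ribosomes, and no value is per unit of length. A gene was called high or low when the Benjamini-Hochberg adjusted p was under 0.05 and the difference was at least 1 in size, that is 2-fold. By this rule 1177 genes (14.4% of those tested) were high and 1437 (17.6%) were low. These shares are the background for the counts of every list below. By the adjusted p alone 2749 genes (33.7%) were higher and 2904 (35.6%) lower.

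The middle of the distribution was narrow. The quartiles of the log2 difference lay at -0.71 and 0.61, a 2.51-fold span, and the 5th and 95th percentiles at -1.78 and 1.55, a 10.1-fold span. Its tails were long: 66 genes lay at 3 or above and 41 at -3 or below, between extremes of -6.0 and 10.01. When replicate 1 and replicate 2 were each taken alone, the ratio had the same sign for 7129 genes (87.4%). It did so for 2612 of the 2614 called genes, which follows largely from a call made on these same libraries.

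**Figure D1:**
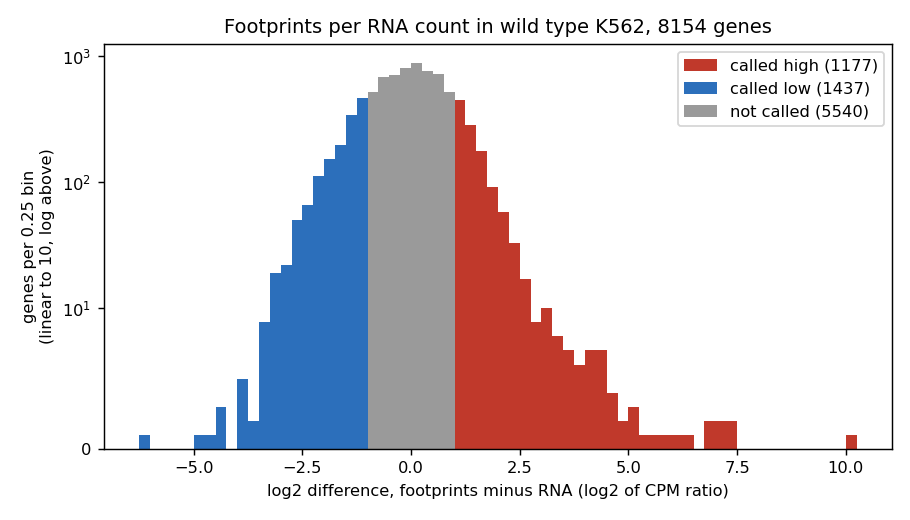
Number of genes (vertical axis, linear to 10 and logarithmic above) in bins of the log2 difference between footprint and RNA CPM (horizontal axis) for the 8154 genes, coloured by call. Most genes lie within 1 of 0, while 66 genes lie at 3 or above and 41 at -3 or below.

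The genes at the upper end had very few RNA counts. HBE1, the embryonic epsilon globin, had 2.63 and 0.899 CPM in the RNA libraries (25 and 10 counts) and 2019 and 1529 CPM in the Ribo-seq libraries (2311 and 1306 counts). Both footprint values lay far above both RNA values, and the log2 difference was 10.01 (SE 0.25, n = 2 libraries per assay, edgeR adjusted p = 4.06e-11). It was 10.9 without RNA-seq replicate 1 and 9.38 without RNA-seq replicate 2. ASNS, which makes asparagine and is a target of the amino acid stress response, had 9.47 and 9.44 CPM in RNA and 1200 and 1025 CPM in footprints, a log2 difference of 6.88 (SE 0.13). EIF4A1, the helicase of the cap-binding complex, had 15.4 and 14.2 CPM in RNA and 856 and 699 CPM in footprints, a log2 difference of 5.72 (SE 0.13). The gap between the assays in these genes is a description, since they were taken as the most extreme.

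The other 7 of the 10 highest genes were RBMXL2 (7.46), PFDN5 (7.31), SHANK3 (7.23), ATP6V0C (7.17), RNASEK (6.92), TSFM (6.20) and COQ8A (5.46). They include a prefoldin chaperone subunit, the membrane ring subunit of the vacuolar proton pump, a mitochondrial elongation factor and a kinase-like protein of coenzyme Q synthesis. RBMXL2 rested on an uneven pair of libraries, with 56 and 371 footprint counts, and so did SHANK3, a synaptic scaffold gene, with 176 and 640. Without Ribo-seq replicate 2 their log2 differences were 5.26 and 5.74, and without Ribo-seq replicate 1 they were 8.41 and 8.03. RNA counts of the 10 genes ran from 10 to 158 and footprint counts from 56 to 2311. Of the 10, 6 overlapped another RefSeq gene on the genome, which is common, as 3736 of the 8154 genes overlapped none. High genes were 16.9% of those 3736 and 8.58% of the 641 genes that overlapped 3 or more. The RNA table counted over 60660 annotated genes while the footprint table held 20419. The part of overlapping annotation in these low RNA counts was not tested.

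The lower end held abundant mRNAs, as the count minimum in part requires. A count of 10 is 8.74 CPM in Ribo-seq replicate 1 and 11.7 in replicate 2, but 0.899 CPM in RNA-seq replicate 2. A gene with few RNA counts could therefore be high but not low. EEF1A1, the factor that brings tRNA to the ribosome, had 4583 and 5961 CPM in RNA (43573 and 66295 counts) and 102 and 57.4 CPM in footprints (117 and 49 counts). The footprint values were far below the RNA values in every library, and the log2 difference was -6.0 (SE 0.21, edgeR adjusted p = 4.51e-10). PTP4A2, a small phosphatase, followed with 705 and 691 CPM in RNA, 21.8 and 26.9 CPM in footprints and a log2 difference of -4.86 (SE 0.15). CBX5, the heterochromatin protein HP1 alpha, had 946 and 990 CPM in RNA, 62.0 and 74.9 CPM in footprints and a log2 difference of -3.84 (SE 0.13). As at the upper end, this separation follows from how the genes were chosen.

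The lowest genes also included the ribosomal protein genes RPS7 (-4.49) and RPL6 (-4.39). Beside them stood PTMA (prothymosin alpha, -4.36), EIF4B (a cofactor of the eIF4A helicase, -3.89), HNRNPA3 (a splicing factor, -3.88) and PPIA (cyclophilin A, -3.87). RNA counts of the 10 genes ran from 1657 to 66295 and footprint counts from 11 to 117. Of the 10, 8 had at least 5 pseudogenes named after them, 49 for EEF1A1 and 89 for PPIA. Short reads from such genes can match several places in the genome, and the sources used here do not state how multiply matching reads were handled.

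**Figure D2:**
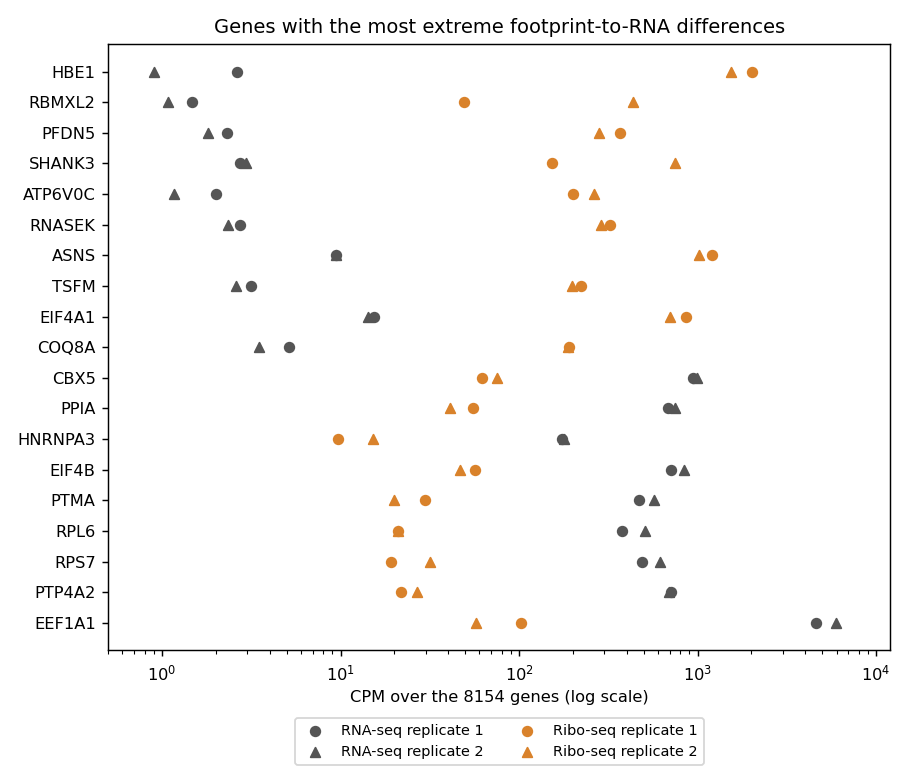
CPM (horizontal axis, logarithmic) in each RNA-seq (grey) and Ribo-seq (orange) library for genes among the 10 highest and 10 lowest called genes averaging at least 5 in log2 CPM. Circles are replicate 1 and triangles replicate 2, and each gene's footprint points lie apart from its RNA points.

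Transcript length, pseudogenes and overlap with other genes moved with the difference across the table. Length was taken for 6738 genes as the longest protein-coding transcript listed in the wild type peak tables. Spearman's rho across genes was -0.50, given as a description because genes share the libraries. In 8 bins of nearly equal number the median log2 difference fell at each step, from 0.91 for transcripts of 303 to 1444 nt to -0.69 for those of 6469 to 34626 nt. The shortest bin held 46.8% high and 6.04% low genes, and the longest 2.97% high and 37.0% low. Values with a smooth length trend removed are therefore given for the gene lists and for named genes whose call they end. Coding lengths were not used here.

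**Figure D3:**
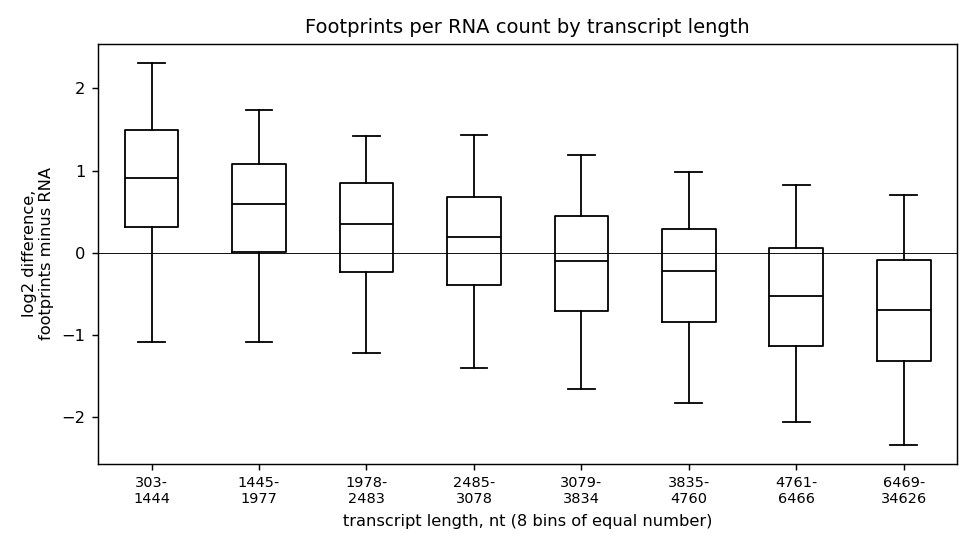
Log2 difference between footprint and RNA CPM (vertical axis) in 8 bins of transcript length in nucleotides (horizontal axis) for 6738 genes. Boxes span the quartiles with the median as a line and whiskers reach the 5th and 95th percentiles; medians step down from 0.91 to -0.69.

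The second property was the number of named pseudogenes. The median was -0.02 over 6708 genes with 0 of them and 0.06 over 1195 genes with 1 to 4. It was -0.19 over 157 genes with 5 to 9, -0.60 over 57 genes with 10 to 19 and -1.07 over 37 genes with 20 or more. In that last bin 51.4% of genes were low. Among low genes named below, RPL12 has 50, ST13 has 17, PABPC1 13, EEF1B2 8, TMSB4X and SDHD 6, and PTGES3 and PTPN11 5. Among high genes named below, ACTB has 12, COX5B 7 and ARPC3 5. The third was overlap with other genes: the median was 0.11 over 3736 genes that overlapped no other RefSeq gene and -0.38 over 641 that overlapped 3 or more. Transcripts were longer in the latter, with a median of 4320 nt against 2784 nt.

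Abundance moved with the difference as well, as it must in part because RNA enters both. The footprint minimum also leaves out low genes with little RNA. Over 4 bins of mean RNA CPM the median log2 difference was 0.34 in the lowest and -0.24 in the highest. In that highest bin 532 of 2039 genes were low. Per the file headers duplicate reads were removed before counting, which lowers abundant short targets most, and its part in these values was not tested.

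Genes of the mitochondrial respiratory chain carried many footprints. Of 38 nuclear subunits of complex I, which takes electrons from NADH, 34 were kept, 26 were high and 0 were low, against 14.4% and 17.6% of all genes tested. Together the 38 made up 0.277% and 0.259% of all counts in the RNA libraries. In the Ribo-seq libraries they made up 0.903% and 0.902%, without overlap between the assays. Such shares are of whole library totals, over 60660 genes in RNA and 20419 in footprints. The genes kept held 9056963 of 10388717 counts in RNA-seq replicate 1 and 1194167 of 1220308 in Ribo-seq replicate 1, so RNA shares come out relatively low. The median log2 difference was 1.72, against -0.02 over all genes, and 1.04 against 0.04 with the length trend removed. NDUFV2, a subunit of the NADH-oxidising arm, led with 49 and 46 RNA counts, 182 and 146 footprint counts and a log2 difference of 5.15 (SE 0.16). NDUFA13 followed at 2.70 (SE 0.20). NDUFA11, a membrane-arm subunit, had the lowest value at -0.47 (SE 0.23, edgeR adjusted p = 0.0882), and the catalytic NDUFS1 was at 0.30 (SE 0.11).

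For complexes II to V 40 of 49 nuclear subunits were kept, with 21 high, 1 low and a median of 1.12 (0.50 with the length trend removed). COX5B of cytochrome oxidase stood at 2.25 (SE 0.09) and ATP5ME of ATP synthase at 2.22 (SE 0.10), or 0.60 and not called with the length trend removed. SDHD, a membrane anchor of succinate dehydrogenase, was the low member at -1.24 (SE 0.22), and was at -0.97, no longer called, without Ribo-seq replicate 1. SDHB, the iron-sulphur subunit of the same enzyme, was high at 2.00 (SE 0.10), so subunits of 1 complex lay on both sides.

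Mitochondrial ribosomal proteins, which build the ribosome inside the organelle, followed the same direction. Of 78 listed, 74 were kept, 45 were high and 1 was low, with a median of 1.35 (0.69 with the length trend removed). Their share of all counts was 0.497% and 0.470% in RNA and 1.21% and 1.17% in footprints. MRPL38 had 98 and 72 RNA counts against 306 and 209 footprint counts, a log2 difference of 4.95 (SE 0.17), and MRPS24 stood at 4.22 (SE 0.23). MRPL42 was the low one at -2.46 (SE 0.18). It has 5 named pseudogenes and a listed transcript of 15560 nt.

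Of the 13 proteins encoded in mitochondrial DNA, which are translated by that organelle ribosome, only 3 reached the minimum. MT-CYB, cytochrome b, was high at 1.70 (SE 0.19), or 0.88 and not called with the length trend removed, while MT-ND4 stood at 0.17 (SE 0.16, edgeR adjusted p = 0.359) and MT-ND1 at -0.21 (SE 0.34, edgeR adjusted p = 0.592). MT-ND1 had 11 and 18 footprint counts, so its 2 replicate ratios, -0.97 and 0.50, lay on opposite sides of 0. MT-CO3, a subunit of cytochrome oxidase, failed the minimum with 516 and 394 RNA counts and 6 and 13 footprint counts.

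The citric acid cycle list was kept whole, 24 genes with 11 high, 2 low and a median of 0.74 (0.65 with the length trend removed). Fumarase, FH, stood at 1.75 (SE 0.09). CS, citrate synthase, was low at -1.09 (SE 0.14), but was at -0.90 and no longer called without Ribo-seq replicate 2. Glycolysis enzymes had a median of 0.66 (0.48 with the trend removed) with 4 of 19 high and 0 low. ALDOA (aldolase A), with 1381 and 1271 RNA counts and 2365 and 1688 footprint counts, reached 3.96 (SE 0.12), whereas GAPDH, with 13920 and 18686 RNA counts and 1344 and 924 footprint counts, was at -0.48 (SE 0.10). GAPDH has 65 named pseudogenes.

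Proteasome subunits, which make up the protease that degrades ubiquitin-tagged proteins, had a median of 1.19 (0.68 with the length trend removed), with 24 of 42 high and 0 low. PSMA6, a core ring subunit, was at 3.03 (SE 0.17) and PSMB10, a subunit of the immunoproteasome, at 2.86 (SE 0.22). At the other end stood the alternative activators PSME3 at -0.93 (SE 0.13) and PSME4 at -0.49 (SE 0.14). Neither met the 2-fold rule, although PSME3 passed it without Ribo-seq replicate 2, at -1.13.

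Replication-dependent histones carried 1.93% and 1.84% of all counts in RNA and 4.75% and 4.77% in footprints. Of 43 kept, 32 were high and 1 was low, with a median of 1.23. These are among the shortest transcripts in the table, with a median of 731 nt, and with the length trend removed the median was 0.18. H2AC17 had 502 and 530 RNA counts and 2000 and 1660 footprint counts, a log2 difference of 5.20 (SE 0.11). H2BC18 had 1990 and 2940 RNA counts and 27 and 12 footprint counts, a log2 difference of -3.60 (SE 0.22). Histone genes share near-identical coding sequences, so reads may be divided among copies, and their mRNAs lack a poly(A) tail. The part of the 2 labelled molecule types in the histone values was not tested.

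Enzymes and chaperones of protein synthesis and folding sat moderately above the average gene. Aminoacyl tRNA synthetases, which charge tRNAs, had a median of 0.67 with 7 of 35 high and 0 low, and 0.71 with the length trend removed. SARS2, the mitochondrial seryl enzyme, was the highest at 2.90 (SE 0.17) and IARS2, the mitochondrial isoleucyl enzyme, the lowest at -0.01 (SE 0.12, edgeR adjusted p = 0.929). Cytosolic chaperones had a median of 0.57 (0.33 with the trend removed) with 8 of 36 high and 4 low. CCT5, a chaperonin ring subunit, stood at 1.64 (SE 0.09). The Hsp90 cochaperone PTGES3 was at -2.67 (SE 0.12), and the cochaperone ST13 at -2.45 (SE 0.22). ST13 was at -3.24 without Ribo-seq replicate 1.

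Chaperones and folding enzymes of the endoplasmic reticulum (ER) had a median of 0.79 (0.39 with the trend removed) with 7 of 21 high and 1 low. TXNDC5, a disulphide isomerase, was at 2.55 (SE 0.14), PPIB, a prolyl isomerase, at 1.78 (SE 0.09; 0.82 with the trend removed) and ERO1A, the oxidase that recharges the isomerases, at -1.61 (SE 0.18). Selenoproteins, whose mRNAs recode a stop codon to insert selenocysteine, had a median of 0.85 (0.33 with the trend removed) with 6 of 16 high and 1 low. SELENOH was at 2.43 (SE 0.11) and SELENOT at 2.21 (SE 0.15). SELENOI was at -1.04 (SE 0.18), and without Ribo-seq replicate 1 it was not called, at -0.79, with the length trend removed it was at -0.33, and without RNA-seq replicate 2 it was just short of the 2-fold rule. DNA replication proteins had a median of 0.59 (0.44 with the trend removed) with 14 of 44 high and 0 low, from PRIM1, the primase, at 1.93 (SE 0.11) to GINS1, a helicase subunit, at -0.91 (SE 0.13).

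**Figure D4:**
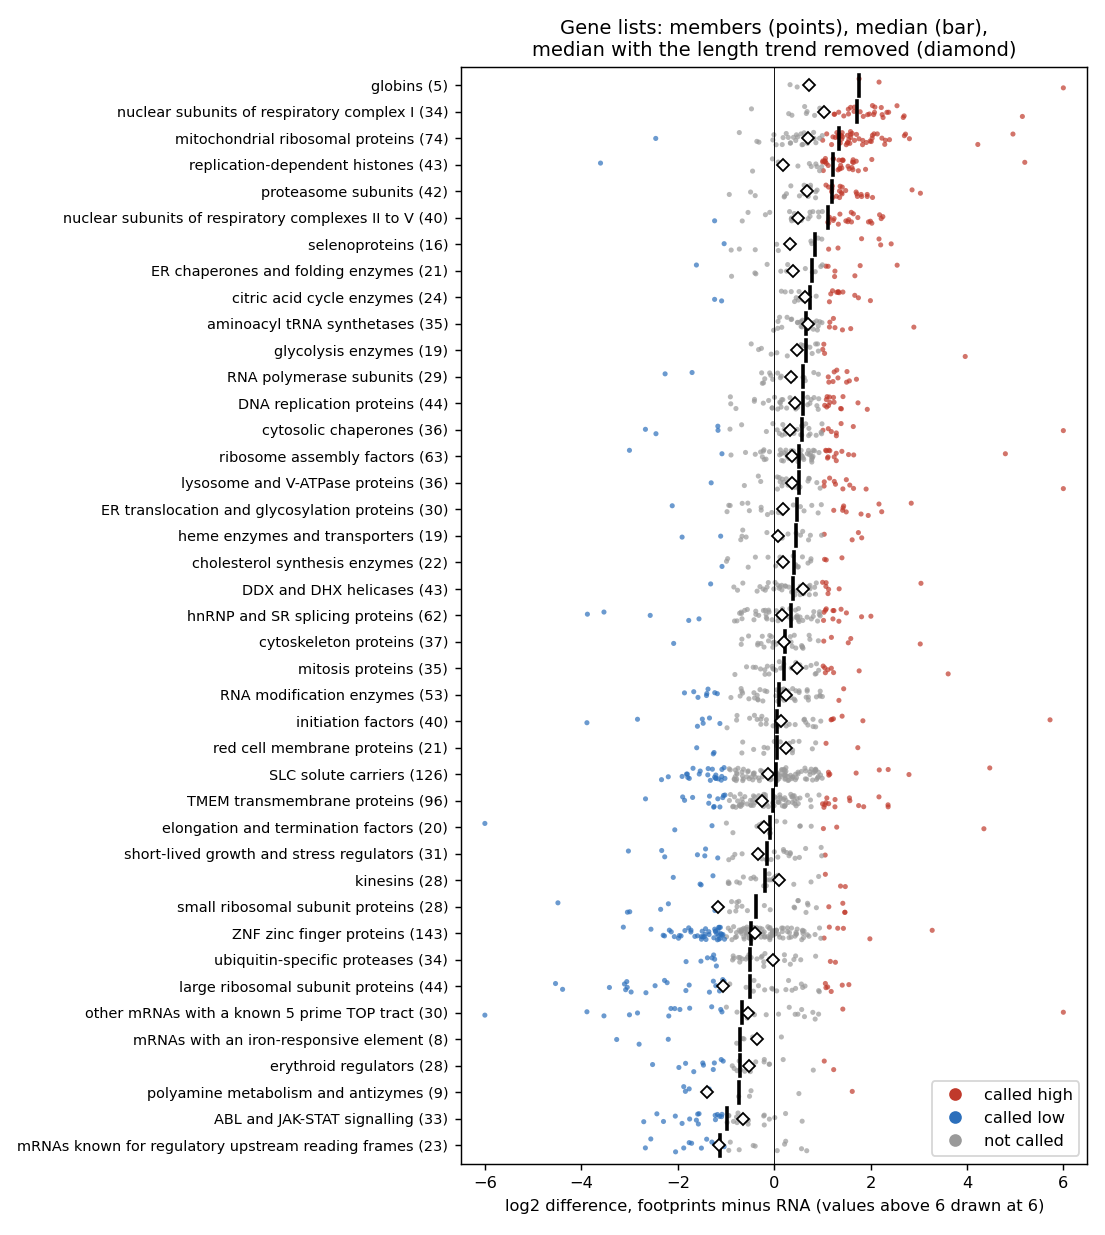
Log2 difference between footprint and RNA CPM (horizontal axis) for the members of each gene list with at least 5 genes kept, ordered by median; numbers of genes kept are in parentheses. Bars are medians and diamonds medians with the transcript length trend removed; medians run from -1.13 for mRNAs known for upstream reading frames to 1.76 for globins, and ribosomal proteins spread over both sides of 0.

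Among the ribosome's own proteins, those of the large subunit spread widely. Of 44 large subunit genes kept, 6 were high and 20 low, with a median of -0.51. Those are 13.6% and 45.5%, against 14.4% and 17.6% of all genes. Of 28 small subunit genes 4 were high and 6 low (14.3% and 21.4%), near the shares of all genes, with a median of -0.38. Quartiles were -2.24 and 0.47 in the large subunit, -0.89 and 0.67 in the small and -0.71 and 0.61 over all genes. The summed large subunit shares of all counts were 3.39% and 3.67% in RNA and 3.65% and 3.31% in footprints. The small subunit shares were 2.41% and 2.57% in RNA and 2.43% and 2.12% in footprints. The library totals span different gene sets, so shares this close do not show whether the assays overlap among the genes kept. With the length trend removed the medians were -1.05 and -1.16.

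RPL13 had 21579 and 28158 RNA counts and 8044 and 5999 footprint counts, a log2 difference of 1.55 (SE 0.09, edgeR adjusted p = 3.58e-08). RPS25 stood at 1.47 (SE 0.10) and RPS21 at 1.46 (SE 0.11). With the length trend removed these were at 0.13 and 0.57 and were not called. RPS2 had 19951 and 29200 RNA counts but 350 and 225 footprint counts, a log2 difference of -3.05 (SE 0.13). These members were taken from the ends of their lists, so the gap between them is a description. RPS2 has 25 named pseudogenes, RPL13 has 6, and RPS25 and RPS21 have 4 each. RPL22L1, a paralogue of RPL22, was at 1.41 (SE 0.20), and at 0.99 without Ribo-seq replicate 1 and 0.95 with the length trend removed, where it was not called.

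The pseudogene count moved with these values. Over 71 ribosomal protein genes Spearman's rho was -0.44. The 21 genes with 0 to 4 named pseudogenes had a median of 0.44, with 5 high and 3 low. The 31 with 5 to 19 had a median of -0.56, with 3 high and 12 low, and the 19 with 20 or more a median of -1.26, with 2 high and 11 low. When genes with at least 5 named pseudogenes were left out, an alternative chosen after the data were seen, the medians of the ribosomal lists were 0.36 for the large and 0.57 for the small subunit, so the direction of the list medians depended on these genes.

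Ribosomal genes beyond the minimum add to the lower end. RPL7 had 3171 and 4993 RNA counts and 0 footprint counts in both libraries, and RPS28 had 3659 and 5616 against 1 and 0. RPL7 has 61 named pseudogenes and RPS28 has 5. Both were picked after their values were seen.

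Start sites with a pyrimidine tract are shown because the same start feature occurred at both ends of the distribution. A tract was defined as C at the RefSeq start followed, without a break, by at least 4 more C or T on the sense strand. It was present in 6.10% of the 6782 genes with a promoter sequence, in 23 of 36 large subunit genes (63.9%), 16 of 22 small subunit genes (72.7%) and 18 of 22 other mRNAs known as TOP mRNAs (81.8%). Among mitochondrial ribosomal proteins 6.15% had one and among complex I subunits 3.45%. Of 55 cytosolic ribosomal protein and other TOP genes with a tract, the 3 with the lowest and the 3 with the highest difference follow, with 10 bases before the start and 20 from it, 5′ to 3′ on the gene's strand and the tract in capitals (RefSeq, GRCh38.p14).
EEF1A1 (chr6:73521013-73521042, minus strand, low): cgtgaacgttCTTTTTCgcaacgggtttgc
EIF4B (chr12:53006446-53006475, plus strand, low): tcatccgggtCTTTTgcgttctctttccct
RPL12 (chr9:127451387-127451416, minus strand, low): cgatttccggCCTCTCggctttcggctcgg
RPS21 (chr20:62387093-62387122, plus strand, high): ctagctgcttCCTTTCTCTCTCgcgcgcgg
RPS25 (chr11:119018324-119018353, minus strand, high): gcagcgcttcCTTTTTgtccgacatcttga
PFDN5 (chr12:53295532-53295561, plus strand, high): gagagacttcCTCTTCgttaagtcggcctt

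The words low and high give the call before the length trend was removed. The tracts of these 6 genes ran from 5 bases in EIF4B to 12 in RPS21. EEF1A1 with 7 and RPS25 with 6 differed by 1 base of tract and lay at -6.0 and 1.47. RPL12, a large subunit protein, had 5273 and 7750 RNA counts, 88 and 30 footprint counts and a log2 difference of -3.42 (SE 0.21). PFDN5, at 7.31, had 22 and 20 RNA counts. Over all genes with a sequence the median was -0.14 for 414 genes with a tract and -0.003 for those without. Within the ribosomal lists the order was the other way: the small subunit medians were 0.46 with a tract and -0.78 without, and the large subunit medians -0.33 and -1.07. The groups without a tract were small, as 16 of 22 and 23 of 36 genes had one. They were not matched for named pseudogenes, and a tract was scored only at the RefSeq start used here.

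Other mRNAs known as TOP mRNAs had a median of -0.67 (-0.55 with the length trend removed), with 13 of 30 low and 2 high. It was 0.08 when genes with at least 5 named pseudogenes were left out. FAU, which encodes a ribosomal protein fused to a ubiquitin-like domain, was the other high member beside PFDN5, at 1.42 (SE 0.11), or 0.30 and not called with the length trend removed. Among initiation factors 6 of 40 were high and 7 low, with a median of 0.07 (0.14 with the trend removed). Those are 15% and 17.5%, near the 14.4% and 17.6% of all genes. PABPC1, the poly(A) binding protein, had 31453 and 40504 RNA counts against 578 and 398 footprint counts, a log2 difference of -2.84 (SE 0.10), and EIF6, which keeps the subunits apart, was at 1.84 (SE 0.10).

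Of elongation and termination factors 3 of 20 were high and 3 low (15% each), near the shares of all genes. Their median was -0.09 (-0.22 with the trend removed). EEF1B2, the exchange factor of EEF1A1, was at -2.06 (SE 0.14), while DHPS, the enzyme that begins hypusine synthesis on eIF5A, was at 4.35 (SE 0.18) on 42 and 43 RNA counts. EEF1G, another subunit of that exchange complex, could not be placed: it had 377 and 282 footprint counts and 0 RNA counts in both libraries. Ribosome assembly factors had a median of 0.51 (0.38 with the trend removed), with 13 of 63 high and 2 low. NPM1, the nucleolar chaperone, was the lowest at -3.0 (SE 0.20), or -3.72 without Ribo-seq replicate 1. It has 49 named pseudogenes.

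The mRNAs known for regulatory upstream reading frames had the lowest median of the lists with at least 5 genes kept. Of 33 listed, 23 were kept, 13 were low and 0 were high, with a median of -1.13. It was -1.15 with the length trend removed. They made up 0.480% and 0.461% of all counts in RNA and 0.285% and 0.297% in footprints, without overlap. Only 1 of the 23 has 5 or more named pseudogenes.

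ATF4, the transcription factor of the integrated stress response and the textbook case of such control, had 5205 and 6832 RNA counts and 129 and 69 footprint counts. Its log2 difference was -2.56 (SE 0.14, edgeR adjusted p = 1.61e-08). MDM2, the ubiquitin ligase of p53, had 1823 and 2259 RNA counts and 41 and 21 footprint counts, a log2 difference of -2.67 (SE 0.16). In both genes the footprint CPM were below the RNA CPM in every library. UCP2, a mitochondrial carrier, and EPRS1, a tRNA synthetase, were the highest of the list at 0.67 (SE 0.11) and 0.57 (SE 0.09), short of the 2-fold rule. ASNS, a known transcriptional target of ATF4, lay at the other end of the table, at 6.88 on 90 and 105 RNA counts.

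Polyamine metabolism overlaps that list, since AMD1 and AZIN1 belong to both. Of 14 genes 9 were kept, 4 were low and 1 was high, with a median of -0.74. It was -1.40 with the length trend removed. AMD1, which makes the aminopropyl donor for spermidine, stood at -1.88 (SE 0.13), OAZ2, an antizyme made by ribosomal frameshifting, at -1.84 (SE 0.20) and AZIN1, the antizyme inhibitor, at -1.76 (SE 0.12). SMS, spermine synthase, was low as well at -1.35 (SE 0.20).

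The remaining polyamine genes were nearer 0 or above it. OAZ1, the main antizyme, was at -0.74 (SE 0.14), and at -1.02, and called, without Ribo-seq replicate 2. SMOX, the spermine oxidase, was at -0.51 (SE 0.28) and ODC1, the first enzyme of the pathway, at -0.48 (SE 0.11). SRM, spermidine synthase, was at 0.51 (SE 0.10). ARG2, the mitochondrial arginase that feeds ornithine to ODC1, was the high member at 1.62 (SE 0.22).

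The ferritin mRNAs stood low among those with an iron-responsive element, the hairpin bound by iron regulatory proteins. FTL, ferritin light chain, had 2578 and 2819 CPM in RNA (24505 and 31357 counts) and 405 and 367 CPM in footprints (463 and 313 counts), a log2 difference of -2.80 (SE 0.11, edgeR adjusted p = 1e-09). FTH1, the heavy chain, had 1210 and 1327 CPM in RNA and 132 and 131 CPM in footprints, a log2 difference of -3.27 (SE 0.11). Their footprint values were several-fold under the RNA values in both replicates. FTH1 has 25 named pseudogenes and FTL has 16.

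Elsewhere in that list CDC42BPA, a kinase with the element in its 3′ UTR, was low at -2.20 (SE 0.13). SLC40A1, the iron exporter ferroportin, with the element in its 5′ UTR, was at -0.78 (SE 0.15), and TFRC, the transferrin receptor, with elements in its 3′ UTR, at -0.65 (SE 0.10). CDC14A was at -0.63 (SE 0.20) and the iron importer SLC11A2 at -0.45 (SE 0.16). In all, 3 of 8 kept were low and 0 high, with a median of -0.72. It was -0.35 with the length trend removed and -2.05 over the 4 genes with at least 50 counts in each library. ALAS2, with 94 and 121 RNA counts and 23 and 9 footprint counts, and EPAS1, with 176 and 213 and 12 and 6, fell short of the minimum.

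Among globins HBE1 was followed by HBQ1, the theta chain, with 43.9 and 38.3 CPM in RNA and 184 and 186 CPM in footprints, a log2 difference of 2.18 (SE 0.12). HBZ, the embryonic zeta chain, had 63.2 and 67.9 CPM in RNA and 225 and 219 CPM in footprints, a log2 difference of 1.76 (SE 0.10). In both, all footprint values exceeded all RNA values, but this was also so in the gamma chains. HBG1 had 55.1 and 51.5 CPM in footprints against 36.6 and 40.2 in RNA. HBG2 had 201 and 159 against 137 and 153. How many of all genes show such a separation was not counted. The foetal gamma chains were closer to the average gene, HBG1 at 0.48 (SE 0.16) and HBG2 at 0.33 (SE 0.12), with adjusted p of 0.0168 and 0.0317 by edgeR but under 2-fold. HBG1 and HBG2 are near-identical copies, so the division of reads between them is uncertain. With the length trend removed HBQ1 and HBZ were at 0.89 and 0.72, not called, and HBG1 and HBG2 at -0.75 and -0.79.

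HBA1, an alpha chain, had 766 and 935 RNA counts and 1 footprint count in each library, and HBA2, which encodes the same protein, 57 and 75 RNA counts and 0 footprints. HBB, HBD and HBM were below the minimum too. Alpha globin therefore has no difference here, and its near-identical pair shares the limit named for the gamma chains.

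Heme enzymes and transporters, a list that holds breakdown as well as synthesis, had 4 of 19 high, 2 low and a median of 0.45 (0.09 with the length trend removed). Of the 4 high genes 2 are biliverdin reductases, which act after heme is broken down. One of them, BLVRB, stood at 1.82 (SE 0.10), or 0.88 and not called with the trend removed, and UROD, uroporphyrinogen decarboxylase, at 1.75 (SE 0.09). UROS, the enzyme just before UROD, had 423 and 515 RNA counts and 24 and 18 footprint counts, a log2 difference of -1.11 (SE 0.19). SLC25A37, mitoferrin, was at -1.91 (SE 0.13). UROS and UROD thus lay on opposite sides although they are consecutive steps.

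Erythroid regulators, mostly transcription factors but with 3 RNA-binding proteins among them, lay mostly below the average gene, with quartiles at -1.25 and -0.21. Of 28 kept, 10 were low and 2 high, with a median of -0.72 (-0.53 with the length trend removed). GATA1, the central red cell factor, had 3764 and 4680 RNA counts and 1020 and 883 footprint counts, a log2 difference of 1.23 (SE 0.10). GATA1 was at 0.57 with the length trend removed and 0.91 with a minimum of 50 counts, and in neither was it called. The fit with that minimum has its own scaling and lower values, with ACTB at 1.27 in it against 1.59. KLF1, which activates adult globin, was at 1.04 (SE 0.10), at 0.44 with the length trend removed, and at 0.97 without RNA-seq replicate 2 and 0.96 without Ribo-seq replicate 2, where it was not called. LIN28B, an RNA-binding protein that favours foetal globin, had 1699 and 2240 RNA counts and 37 and 29 footprint counts, a log2 difference of -2.52 (SE 0.16), and ETV6 was at -1.98 (SE 0.16). LMO2 and TAL1, which bind DNA with GATA1 as a complex and were picked after their values were seen, were at -1.84 (SE 0.12) and -1.48 (SE 0.14).

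Signalling genes downstream of ABL and JAK kinases, the pathway driven by the BCR-ABL1 fusion of this line, lay mostly below the average gene, with quartiles at -1.57 and -0.54. Of 33 kept, 16 were low and 0 high, with a median of -0.98 and of -0.64 with the length trend removed. Their share of all counts was 0.787% and 0.760% in RNA and 0.443% and 0.429% in footprints. NRAS had 2341 and 2953 RNA counts and 37 and 41 footprint counts, a log2 difference of -2.71 (SE 0.16), and PTPN11, the phosphatase SHP2, was at -2.43 (SE 0.12). MAPK3, the kinase ERK1, was the highest at 0.58 (SE 0.14). Their transcripts are long, with a median of 5165 nt against 3078 nt over all genes. Of the 33, 28 overlap another gene, while 3736 of the 8154 genes kept overlap none.

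Zinc finger genes named ZNF, which encode DNA-binding proteins, had 44 of 143 low and 6 high, with a median of -0.48, and -0.39 with the length trend removed. ZNF121 was the lowest at -3.13 (SE 0.17) and ZNF410 the highest at 3.28 (SE 0.29) on 25 and 33 RNA counts. Short-lived regulators of growth and stress had a median of -0.14 (-0.34 with the trend removed), with 7 of 31 low and 1 high. CCND2, cyclin D2, had 4963 and 6192 RNA counts and 70 and 62 footprint counts, a log2 difference of -3.03 (SE 0.13), and BTG1, an antiproliferative factor, was at -2.33 (SE 0.20). IER3, the high one, was at 1.06 (SE 0.17), at 0.34 with the length trend removed, and at 0.94 without RNA-seq replicate 2 and 0.83 without Ribo-seq replicate 2, where it was not called.

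RNA modification enzymes had a median of 0.10 (0.25 with the trend removed), with 8 of 53 low and 2 high. Those are 15.1% low, near the 17.6% of all genes, and 3.77% high, under the 14.4% of all genes. ALKBH5, an eraser of methyladenosine, was at -1.86 (SE 0.14), and RBM15B, a part of the writer complex, at -1.67 (SE 0.17). TRUB2, a mitochondrial pseudouridine synthase, stood at 1.44 (SE 0.10). NAT10 itself had 151 and 165 CPM in RNA and 188 and 200 CPM in footprints, a log2 difference of 0.29 (SE 0.11, edgeR adjusted p = 0.0279), close to the average gene.

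The splicing list shows how far members of 1 family can lie apart. HnRNP and SR proteins and spliceosome subunits had a median of 0.34 (0.17 with the trend removed), with 12 of 62 high and 5 low. HNRNPA1, an abundant nuclear RNA binder, had 8869 and 12472 RNA counts and 85 and 91 footprint counts, a log2 difference of -3.53 (SE 0.16), and has 74 named pseudogenes. SNRPB, a core protein of spliceosomal particles, was at 1.81 (SE 0.09), or 0.96 and not called with the trend removed. Cytoskeleton genes had a median of 0.22 (0.21 with the trend removed): ARPC3, of the actin branching complex, was at 3.03 (SE 0.10), ACTB at 1.59 (SE 0.09) with 57303 and 66674 RNA counts and 20396 and 15659 footprint counts, and TMSB4X, thymosin beta 4, at -2.09 (SE 0.13).

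Several further lists lay moderately above the average gene. Lysosome and proton pump genes had 11 of 36 high and 1 low, with a median of 0.51, and RNA polymerase subunits 10 of 29 high and 2 low, with a median of 0.60. With the length trend removed these medians were 0.37 and 0.34. In the latter POLR2I, of RNA polymerase II, was at 1.71 (SE 0.11; 0.31 with the trend removed) and POLR1D, shared by polymerases I and III, at -2.26 (SE 0.16). ER translocation and glycosylation genes had 10 of 30 high and 1 low and a median of 0.47 (0.19 with the trend removed), from SEC11C, of the signal peptidase, at 2.84 (SE 0.21) to SRP9, of the signal recognition particle, at -2.12 (SE 0.16). DDX and DHX helicases had 7 of 43 high and 1 low and a median of 0.38 (0.60 with the trend removed). DDX6, which holds mRNAs in a repressed state, was the low one at -1.32 (SE 0.11), or -0.78 with the trend removed.

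Mitosis genes had 8 of 35 high and 0 low and a median of 0.20 (0.48 with the trend removed), led by PRC1, a bundler of spindle microtubules, at 3.61 (SE 0.14). Kinesins had 3 of 28 high and 4 low (10.7% and 14.3%), against 14.4% and 17.6% of all genes. Their median was -0.19, or 0.11 with the trend removed, and KIF21B was the lowest at -2.09 (SE 0.16). Ubiquitin-specific proteases had 2 of 34 high and 7 low, with a median of -0.50 (-0.02 with the trend removed). Solute carriers had 8 of 126 high and 24 low with a median of 0.04 (-0.12 with the trend removed). TMEM genes had 15 of 96 high and 13 low, shares near those of all genes, with a median of -0.02 (-0.25 with the trend removed). Red cell membrane genes had 2 of 21 high and 3 low (9.52% and 14.3%), with a median of 0.05 (0.24 with the trend removed). Among them ICAM4 was at 1.73 (SE 0.11) and DMTN, a binder of the actin junction, at -1.61 (SE 0.15). Cholesterol synthesis genes had 3 of 22 high and 1 low, with a median of 0.42 (0.19 with the trend removed).

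The knockout libraries, which played no part in choosing or calling these genes, gave values in other libraries. Their RNA-seq libraries were summed as 1 sample because they were nearly identical. Across the 8154 genes the knockout difference was correlated with that in wild type at r = 0.941 and rho = 0.932, a description over genes. Of the 1177 genes high in wild type 1176 were above 0 in knockout cells and 876 were at least at 1, and of the 1437 low genes 1437 were below 0 and 1009 at -1 or lower. The exception was CYB5R2, a cytochrome b5 reductase, at 1.33 in wild type and -4.41 in knockout.

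The knockout median was 1.60 for complex I, 1.25 for mitochondrial ribosomal proteins and histones alike, and -1.15 for the mRNAs with upstream reading frames. HBE1 was at 11.0 and EEF1A1 at -5.48. The medians of cytosolic ribosomal proteins were -0.06 for the large and 0.25 for the small subunit, against -0.51 and -0.38 in wild type. Their wild type replicates also differed, at -0.35 and -0.86 for the large subunit and -0.16 and -0.59 for the small. The ER chaperone median was 0.22 in knockout against 0.79. No test of these genotype differences is given.

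**Figure D5:**
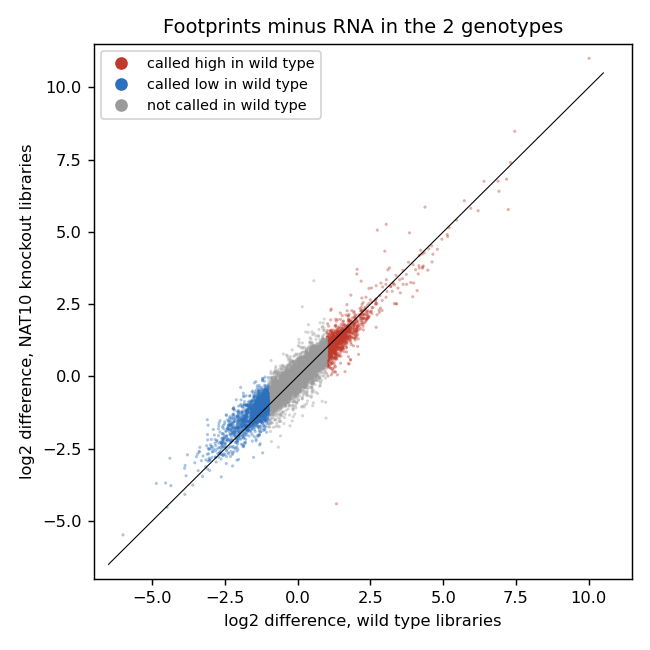
Log2 difference between footprint and RNA CPM in the knockout libraries (vertical axis) against that in wild type (horizontal axis) for 8154 genes, coloured by the wild type call, with the line of equality. Points follow the line (r = 0.941), and 1 gene called high in wild type lies below 0 in knockout cells.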

How the data were processed

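Whole-number read counts per gene were deposited by the authors for each RNA-seq and Ribo-seq library. Reads marked as duplicates had been taken out first, per the file headers. Among the tools in the submitters' processing notes are STAR and featureCounts, and the build is GRCh38.p13. The features counted for footprints and the strand setting are not given in the sources used here. From the authors' deposited peak lists, only transcript lengths and peak fold enrichments were read. The ratio of ac4C antibody to IgG enrichment was formed here from those values.

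The 4 wild type libraries were fitted in edgeR 4.0.16 (R 4.3.3): TMM scaling over the 8154 genes kept, the quasi-likelihood F test of footprints against RNA with 2 residual degrees of freedom, and Benjamini-Hochberg adjustment over all 8154. CPM use the TMM-scaled library sizes, while shares of gene lists are percentages of all counts in a library. The biological coefficient of variation was 5.94%. Whether replicates came from separate cultures is not in the labels, and p-values measure only the spread between libraries, which could be technical. SE is the standard error of the log2 difference. Length trends were removed with lowess (span 0.5). The model was tested on simulated counts.

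Members and the 46 gene lists were chosen with earlier results of these data known, so lists are described by counts and medians without a test of the list. Named are the 10 highest and 10 lowest called genes among those averaging at least 5 in log2 CPM, the 2 highest and 2 lowest members of lists with at least 5 genes kept, all members of the globin, iron-responsive, polyamine and mitochondrially encoded lists, and NAT10. A few genes that this rule gives are not reported here. Pseudogenes were counted by symbol and overlaps by RefSeq gene spans without strand. Symbols were matched for 20352 genes. Alternatives were other scalings, count minimums, tools and gene subsets, a replicate block and leaving out each library.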

Additional observations from a re-analysis of the deposited data

How the results depend on the processing

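Counts of high and low genes were 1177 and 1437. A minimum of 50 counts gave 471 high and 566 low (4016 tested; 471 and 328 shared with the main calls), leaving out overlapping genes 510 and 669 (3803 tested), and removing the length trend, which changes the values themselves, 644 and 904 (6738 tested; 469 and 745 shared). Gene subsets were rescaled, which moves values and calls: ACTB was at 1.27 with the minimum of 50 and at 1.59 in the main fit. More were called with no minimum (12543 tested, 1593 and 2394) and by adjusted p alone (2749 and 2904). DESeq2 gave 1225 and 1392. With that trend removed 29 named genes lost their call and 7 gained it. Leaving out 1 library gave 1160 to 1207 high and 1441 to 1500 low. Without scaling factors, which shifts the median of all genes by -0.12, the counts were 949 and 1675. The replicate block gave 1175 and 1446; the deviations of same-numbered libraries were correlated at -0.17, and the crossed pairing gave 1179 and 1439. The block changed no call of a named gene. Over 184 named genes and 17 alternatives, 2791 of 2932 values kept their call and direction, 68 lost the call, 73 gained it and 0 changed sign with a call. List medians changed sign for 5 of 45 lists with the length trend removed and 4 of 44 without genes with many pseudogenes. The planned scaling per coding length was not run because coding lengths were not used here. Footprint counts under about 50 limit single genes most.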

Other observations

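Genes in the next 2 groups were under the count minimum in 1 assay and were picked after their values were seen. Of 2528 genes with at least 1000 RNA counts in both libraries, 31 had fewer than 10 footprint counts in at least 1 Ribo-seq library. ARF3, a small GTPase, had 2298 and 2788 RNA counts and 0 footprints in both. HMGB1, a chromatin protein, had 1357 and 2044 against 1 and 2, and ARPC4, of the actin branching complex, 1186 and 1299 against 2 and 0. Of the 31 genes, 7 have at least 5 named pseudogenes, HMGB1 with 48 among them.

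Of 2186 genes with at least 100 footprint counts in both libraries, 13 had fewer than 10 RNA counts in at least 1 RNA-seq library. TOMM6, of the mitochondrial import pore, had 817 and 473 footprint counts and 0 RNA counts in both, and GP1BB, a platelet receptor subunit, 549 and 523 against 0 and 0. Of the 13 genes, 6 overlap another RefSeq gene, while 3736 of the 8154 genes kept overlap none.

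Footprint CPM were more than 4-fold higher in Ribo-seq replicate 2 than in replicate 1 for 8 genes, among them MRC2, RBMXL2, CBARP, TCF7L1, FAM43A, SHANK3 and ZNF367, and 0 genes were that much lower. Between the RNA-seq libraries 0 genes had such a gap. MRC2, a collagen receptor, had 53 and 605 footprint counts beside 523 and 582 RNA counts. Of the 8 genes 5 were called high.

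A ratio was formed per gene from the authors' deposited peak lists: the highest peak fold with the ac4C antibody over the highest with IgG. Replicates were not combined, and only genes with peaks in both kinds of list had a value. Across these 6614 genes Spearman's rho between the ratio and the footprint difference was 0.078, given as a description. The ratio is not a deposited measure of ac4C, and whether ac4C relates to translation was not tested.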
